A study of Homo sapiens with 6 samples.

Results

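MDA-MB-231, a triple-negative, mesenchymal-like human breast cancer line, was profiled on Illumina bead arrays as 2 arrays labelled SETDB1 knock-down with the short hairpin shRNA-1 and 2 arrays of the hairpin control shCtrl. A gene was included when its probe was detected, with a detection p below 0.05, on both arrays of at least 1 of these arms, which gave 11640 of the 13022 genes tested. Cells of all 4 samples were grown in DMEM with serum and antibiotics, no drug or time point is named, and neither the hairpin sequence nor the time after its introduction was stated. The other 2 arrays of the series, MDA-MB-453 cells labelled shRNA-3 and control, enter only where named. Whether the replicates are separate cultures is not stated, so every p-value is set against a spread between arrays that may be technical only. In such pooled RNA, fewer cells that express a gene and less RNA of it per cell cannot be told apart.

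SETDB1 is a histone methyltransferase that places trimethyl marks on lysine 9 of histone H3. It works with the corepressor TRIM28 and with ATF7IP to silence retroelements and some germline and lineage genes. A short hairpin RNA is processed to a small interfering RNA that directs degradation of the matching mRNA. The series title places MYC and the Polycomb protein BMI1 on an axis through which SETDB1 acts in breast tumours, so the comparison asks which genes differ when SETDB1 is targeted.

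The 4 arrays detected 20488 to 21238 of 48107 probes, and their median intensities before normalization were 49.99 to 53.5. All carried 1 shared batch label. The replicates correlated across genes at 0.993 in the controls and at 0.990 in the labelled knockdown arm, and a gap of at least 2-fold between replicates was seen for 21 and 73 genes. Values below are normalised log2 intensities, given as control replicates 1 and 2 and then labelled knockdown replicates 1 and 2. Differences are labelled knockdown minus control on the log2 scale with the standard error from limma, and "rose" and "fell" mean a limma adjusted p below 0.05 over all 13022 genes.

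SETDB1 itself read 7.40 and 7.42 on the controls and 7.29 and 7.21 on the labelled knockdown arrays. Both of the latter lay below both controls, but the difference of -0.16 ± 0.16 (SE, 2 arrays against 2) did not pass the test (limma adjusted p = 0.493), and its 95% interval was -0.53 to 0.22. The gene has a single probe on the array, and where that probe lies relative to the hairpin target was not analysed here. The arms are therefore called "labelled knockdown" and control, and every direction rests on those labels. BMI1 read 11.16 and 11.36 against 9.91 and 10.24 and fell by 1.18 (SE 0.19). MYC read 11.64 and 11.64 against 11.48 and 11.62, and its difference of -0.09 ± 0.17 did not pass, with both labelled knockdown arrays just below both controls. Of SETDB1's partners, TRIM28 read 9.71 and 9.43 against 9.60 and 9.28, and ATF7IP 4.66 and 5.01 against 5.05 and 5.07, neither called.

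Across all genes, 2536 rose and 2567 fell, which is 19.5% and 19.7% of those tested and 39.2% in either direction. Every called gene was among the 11640 included, since 0 of the other 1382 passed. Among the 10036 genes detected on all 4 arrays, 2064 rose (20.6%) and 2196 fell (21.9%), so 42.4% were called, with 899 rises and 845 falls of 2-fold or more. At 8-fold or more the balance shifted, with 69 rises and 11 falls among these genes. A further 3878 genes had arms that did not overlap but fell short of the test, and in all 69% of the tested genes had such separate arms (34.1% above and 34.8% below). The totals depended on the controls: 1698 rose and 1607 fell without control replicate 1, and 1527 and 1366 without control replicate 2. For the lists below, some counts of 4 or more moved by over 1.5 times when any 1 of the 4 arrays was left out. Each such count is given with that value, or with the direction of the move, beside it. Smaller counts move by as much with 1 or 2 genes. A list's median moved by at most 0.331 (log2) when 1 array was left out. Calls were spread over the whole range of intensity. With the genes detected on all 4 arrays cut into 4 equal groups by level, in the dimmest 17.02% rose and 18.5% fell, in the next 23.9% and 23.5%, in the third 23.2% and 24.8%, and in the brightest 18.1% and 20.7%.

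**Figure D1:**
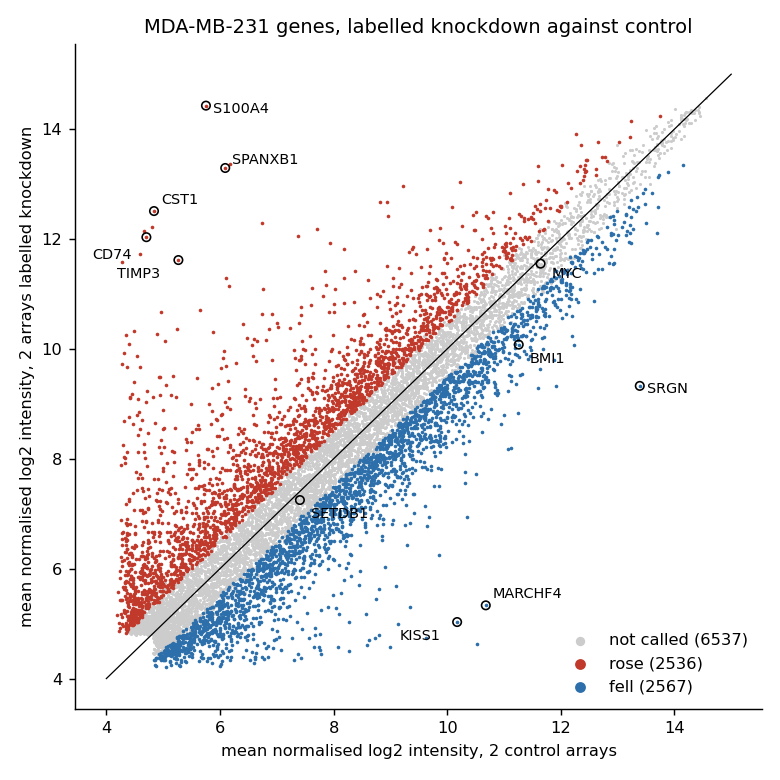
Mean normalised log2 intensity of the 2 control arrays (x axis) against the 2 labelled knockdown arrays (y axis) for the 11640 included genes, with the line of equality. Red points rose (2536), blue points fell (2567) and grey points were not called, and the named genes are circled; the farthest points lie above the line at the left, among them S100A4, CST1, CD74 and TIMP3.

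More genes gained detection in the labelled knockdown arm than lost it. There were 479 genes detected on both labelled knockdown arrays and on neither control, of which 340 rose, and 310 with the reverse pattern, of which 213 fell. Another 414 were detected on both labelled knockdown arrays and 1 control (132 rose), and 401 on both controls and 1 labelled knockdown array (158 fell). These classes were formed from the detection of the same arrays, so their direction is fixed by the class. For a gene not detected in an arm the fold is given as a bound, "at least", against the lowest signal among detected probes of those arrays.

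Among genes detected on all 4 arrays, the calcium-binding protein S100A4, known for its part in cell motility and metastasis, showed the largest rise. Its probe read 6.11 and 5.40 on the controls against 14.49 and 14.37, a difference of 8.67 ± 0.24 (limma adjusted p = 2.07e-07). TIMP3, a matrix-bound inhibitor of metalloproteinases that is often silenced by promoter methylation in tumours, read 5.39 and 5.14 against 11.63 and 11.61. Its difference was 6.35 ± 0.17, and for both genes the 2 arms stood many times farther apart than their replicates. The promoters of the 2 genes are shown because they differ in the CpG dinucleotides that DNA methylation acts on. They come from RefSeq, build GRCh38.p14, run from 250 bases before to 50 after the start, and have every CpG in capitals. S100A4 (chr1:153545757-153546056, minus strand) holds 8 and TIMP3 (chr22:32801455-32801754, plus strand) 31, at observed-over-expected ratios of 0.29 and 0.79.
S100A4: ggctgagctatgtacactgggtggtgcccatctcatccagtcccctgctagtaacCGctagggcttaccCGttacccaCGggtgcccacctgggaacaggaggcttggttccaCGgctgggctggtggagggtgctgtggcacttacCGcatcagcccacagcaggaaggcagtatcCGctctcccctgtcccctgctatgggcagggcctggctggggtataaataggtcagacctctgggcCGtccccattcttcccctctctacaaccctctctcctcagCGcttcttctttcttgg
TIMP3: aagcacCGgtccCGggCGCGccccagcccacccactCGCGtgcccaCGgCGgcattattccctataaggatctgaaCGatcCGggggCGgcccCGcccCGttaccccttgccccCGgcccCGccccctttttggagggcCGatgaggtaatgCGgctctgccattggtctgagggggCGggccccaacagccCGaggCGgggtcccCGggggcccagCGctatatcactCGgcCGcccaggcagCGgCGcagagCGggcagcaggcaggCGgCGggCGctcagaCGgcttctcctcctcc

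Of the other leading rises, ABCA1, which exports cholesterol from cells, read 5.01 and 5.47 against 10.41 and 10.32 and rose by 5.12. PTGES, the inducible prostaglandin E synthase, read 7.41 and 7.32 against 12.14 and 11.96 and rose by 4.68. CPE, a carboxypeptidase that trims peptide hormones, went from 4.99 and 5.08 to 9.78 and 10.53, with an SD of 0.53 between the labelled knockdown replicates and a difference of 5.11 ± 0.25. RASD1, a small GTPase first known as induced by dexamethasone, went from 6.87 and 6.62 to 12.19 and 12.38 (5.54 ± 0.18). The forkhead transcription factor FOXQ1 read 6.34 and 5.97 against 11.07 and 11.22, and ADIRF, an adipogenesis regulatory factor, 5.76 and 5.52 against 10.95 and 10.47. In each of these 6 genes both labelled knockdown arrays lay above both controls by more than 4 log2 units.

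Among the same genes, the largest falls were smaller than the largest rises. MARCHF4, a transmembrane E3 ubiquitin ligase, read 10.63 and 10.73 on the controls against 5.46 and 5.21 (-5.35 ± 0.18, limma adjusted p = 3.94e-07). KISS1, which encodes kisspeptin and was named as a suppressor of melanoma metastasis, read 10.53 and 9.82 against 5.14 and 4.92 (-5.15 ± 0.24). SRGN, a proteoglycan of secretory granules, was bright on the controls at 13.34 and 13.44 and read 8.95 and 9.70 on the labelled knockdown arrays. AOX1, an aldehyde oxidase, went from 10.19 and 10.49 to 7.18 and 6.72, and the organic anion transporter SLCO1B3 from 8.83 and 9.38 to 5.56 and 5.80. NLRP3, the sensor of an inflammasome, went from 8.25 and 8.29 to 4.94 and 5.12. PDSS1, a subunit of the enzyme that makes the side chain of coenzyme Q, went from 11.03 and 11.23 to 8.17 and 8.23. The other 5 of the 12 leading falls were RBPMS2, MAP3K7CL, TMEM98, RAB3IL1 and TRNP1, at -4.04, -3.61, -3.40, -3.29 and -3.17, and in all 12 the arms did not overlap.

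**Figure D2:**
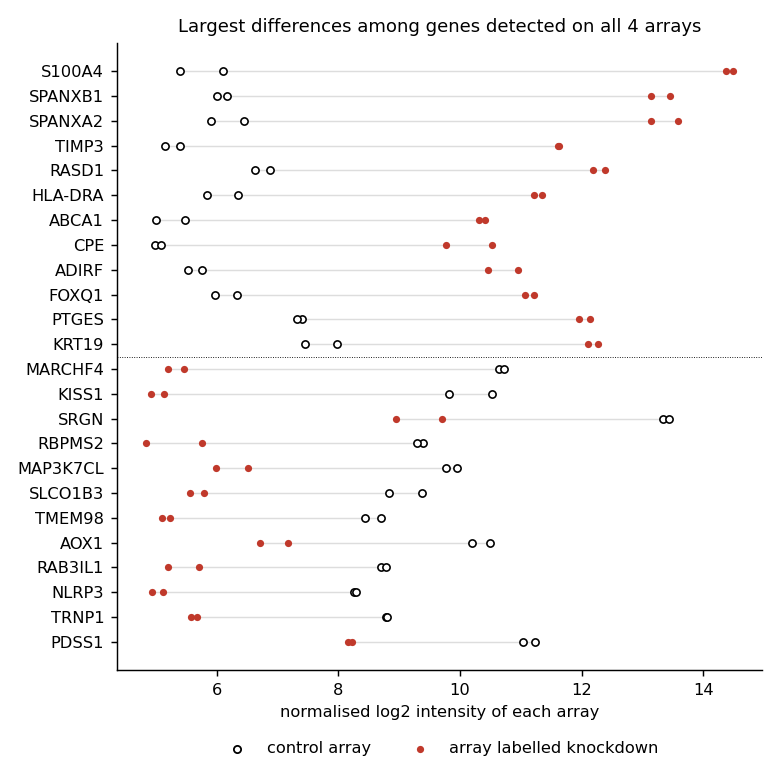
Normalised log2 intensity (x axis) of each of the 4 arrays for the 12 largest rises (above the dotted line) and the 12 largest falls (below it) among genes detected on all 4 arrays. Open circles are control arrays and red circles arrays labelled knockdown, and in every gene the 2 arms are separate, from S100A4 at 5.40 to 14.49 down to PDSS1 at 8.17 to 11.23.

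S100 proteins, small calcium-binding proteins whose genes lie mostly in a cluster on chromosome 1, were the list with the largest share of rises. Of 14 tested, 10 rose and 0 fell, with a median difference of 1.14 against -0.01 over all genes. S100P was not detected on either control (4.31 and 4.24) and read 9.78 and 9.66 on the labelled knockdown arrays, at least 30.2-fold higher. S100A3 read 7.76 and 7.10 against 10.98 and 10.56, S100A2 5.56 and 5.71 against 8.21 and 7.75, and S100A6, already bright, 12.47 and 12.08 against 14.02 and 13.81. The 4 that were not called, S100A9, S100A1, S100A8 and S100A14, differed by 0.05, -0.09, -0.12 and -0.31. Among the 9 detected on all 4 arrays 8 rose. In gene order the 11 tested members from S100A9 to S100A1 are neighbours, of which 7 rose, and they lie 37 tested genes from SETDB1.

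Secreted cystatins inhibit cysteine proteases of the cathepsin family. Of 20 cystatins and cathepsins tested, 13 rose and 3 fell, with a median of 1.25, and 1 fell without either control replicate or labelled knockdown replicate 2. CST1 was detected on 1 control and read 4.93 and 4.75 there against 12.65 and 12.37. CST4, CST6 and CST2 were detected on neither control, and the lower bounds of their rises were 39.0-fold, 10.95-fold and 9.26-fold. CST1, CST2 and CST4 are near copies, so their probes may bind each other's transcripts and which of them rose is uncertain. All 5 tested members of the cystatin cluster on chromosome 20 (CST3, CST4, CST1, CST2 and CST7) rose, and the 1 other tested gene between them did not pass. Among the proteases, CTSD, an aspartic protease of lysosomes that is not of the cysteine class, read 8.06 and 7.98 against 11.10 and 11.08. The 3 falls, the cysteine proteases CTSC, CTSV and CTSH, named after their values were seen, were at -1.07, -0.74 and -0.50.

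MHC class II molecules present peptides from endocytosed proteins to CD4 T cells and are normally expressed by professional antigen-presenting cells or after interferon gamma. Of 17 tested genes of class II presentation, 12 rose and 1 fell (median 0.72). CD74, the invariant chain that guides class II molecules, read 4.59 and 4.82 on the controls, where 1 array detected it, against 12.17 and 11.90. HLA-DRA read 6.35 and 5.84 against 11.21 and 11.35, and HLA-DMB, which helps to load peptide, 6.20 and 5.82 against 9.60 and 9.69. HLA-DPA1 was not detected on the controls and was at least 29.1-fold higher. The HLA genes are polymorphic and the DRB genes are near copies, so the HLA-DRB4 difference of 4.42 may come from another DRB transcript.

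Of the class II regulators, the master coactivator CIITA was near the detection limit, at 4.39 and 4.59 on the controls and 4.86 and 5.42 on the labelled knockdown arrays. It was detected on both of the latter only and was at least 1.27-fold higher, with an adjusted p of 0.0429 that passed under 5 of 11 other settings and ranged up to 0.21. RFX5 differed by 0.30 and RFXANK by -0.04, neither called, whereas RFXAP, the third subunit of the same DNA-binding complex, was the list's only fall, from 7.44 and 7.51 to 5.75 and 5.96. These RFX genes were named after their values were seen. The promoters of CD74 and HLA-DMB are shown with matches to 2 letter patterns, the CCAAT box and the class II X box. The CCAAT box (letters CCAAT, either strand) stood in 8 of 11 promoters of the class II presentation list with an entry (72.7%). It stood in 37.1% of the 10356 tested genes with one. The 11 include IFI30 and the regulators RFX5, RFXANK and RFXAP, and IFI30 and RFX5 are among the 8. The X box pattern stood in 3 of 11, HLA-DMA, HLA-DMB and HLA-DQB1, against 7 of 10356 (0.07%). That pattern is the one of class II promoters, so its share in this list is no independent evidence. Whether the marked matches act as class II control elements, or are spaced like them, was not tested. CD74 lies at chr5:150412861-150413160 and HLA-DMB at chr6:32940979-32941278, both on the minus strand, with CCAAT boxes and the match to the X box pattern in capitals.
CD74: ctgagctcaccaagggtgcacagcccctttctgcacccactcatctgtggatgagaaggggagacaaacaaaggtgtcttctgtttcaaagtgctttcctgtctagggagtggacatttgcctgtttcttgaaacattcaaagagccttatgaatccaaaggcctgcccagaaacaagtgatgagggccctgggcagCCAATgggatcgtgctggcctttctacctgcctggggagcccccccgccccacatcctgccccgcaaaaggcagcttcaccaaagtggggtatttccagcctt
HLA-DMB: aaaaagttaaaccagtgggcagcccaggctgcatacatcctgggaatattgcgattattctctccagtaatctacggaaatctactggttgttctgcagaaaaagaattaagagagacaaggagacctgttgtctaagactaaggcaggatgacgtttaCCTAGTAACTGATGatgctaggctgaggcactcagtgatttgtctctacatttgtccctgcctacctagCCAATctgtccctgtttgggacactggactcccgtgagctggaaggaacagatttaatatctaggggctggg

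Class I presentation is carried out by nearly every nucleated cell. Of 17 genes tested, 8 rose and 2 fell (median 0.47), and without control replicate 2 only 3 rose and 0 fell. HLA-G read 7.29 and 6.87 against 8.79 and 8.46, HLA-F 9.85 and 9.45 against 11.12 and 10.84, and TAPBP, the tapasin of the peptide-loading complex, 9.09 and 8.86 against 10.50 and 10.20. B2M, the shared light chain, read 12.79 and 12.62 against 12.82 and 13.29 and was not called at 0.35 ± 0.20. Along chromosome 6 between HLA-F and HLA-DPB1, 11 of 14 tested HLA genes rose and 0 fell, while of the 91 other tested genes in that stretch 20 rose and 8 fell.

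**Figure D3:**
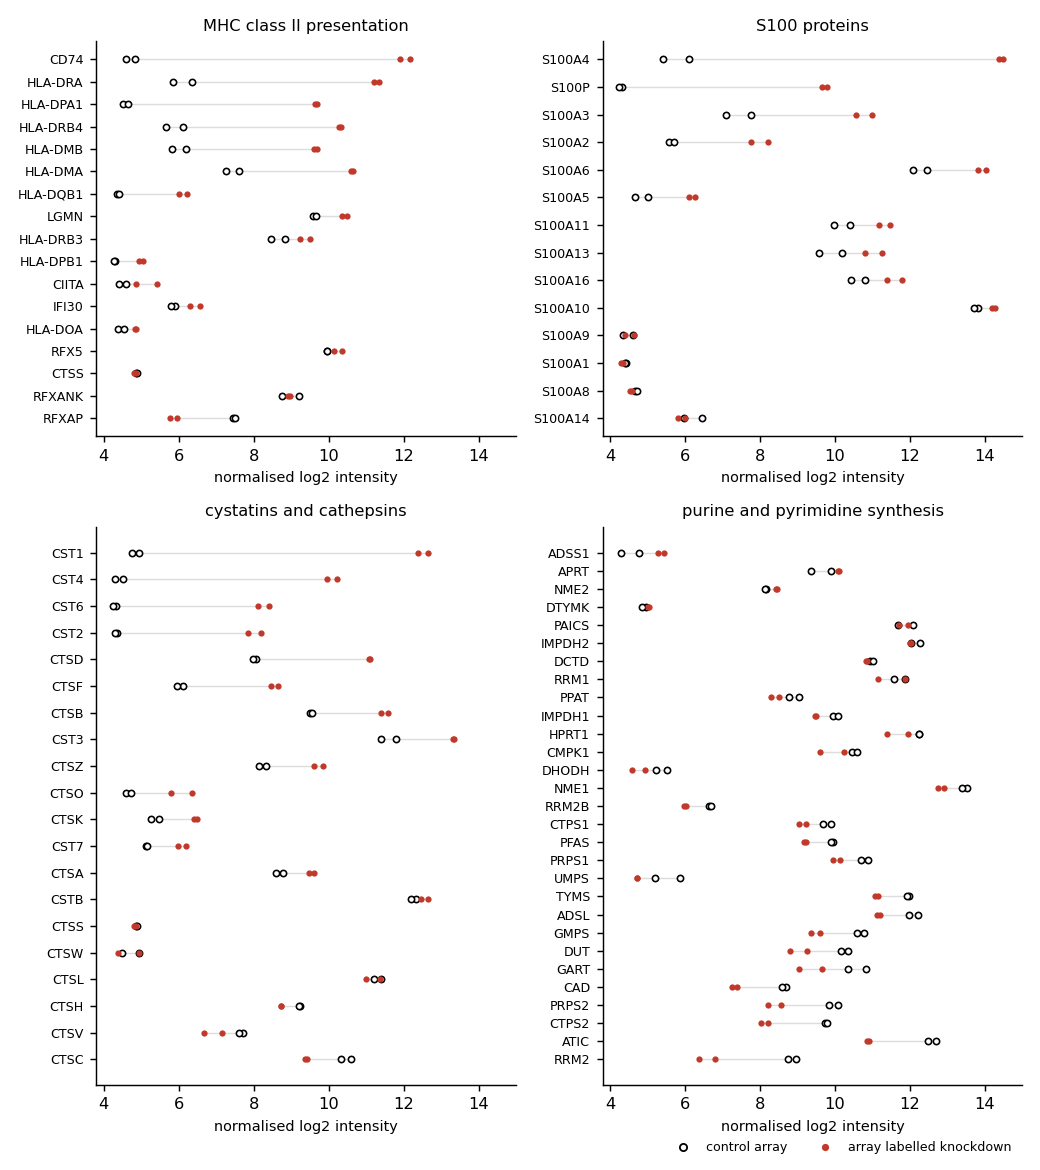
Normalised log2 intensity (x axis) on each array for every tested member of 4 lists, sorted by difference. Open circles are the 2 controls and red circles the 2 labelled knockdown arrays; the rises of CD74, S100A4 and CST1 span over 7 log2 units, whereas purine and pyrimidine genes shift left, RRM2 the most at -2.27.

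The SPANX genes of the X chromosome, normally transcribed in spermatids, rose in all 5 copies tested. SPANXB1 read 6.18 and 6.01 against 13.45 and 13.13, SPANXA2 6.46 and 5.91 against 13.59 and 13.13, SPANXC 5.09 and 4.52 against 12.41 and 12.03, and SPANXA1 5.41 and 4.87 against 9.22 and 9.12. SPANXD was detected on neither control and rose by at least 122-fold. Since the sequences of these genes are nearly the same, which of them rose is uncertain. LDOC1, the 1 tested gene that lies between them, fell, from 9.40 and 9.02 to 8.68 and 8.53, and was named after its values were seen. The promoters of SPANXA1 and SPANXA2 are identical over 300 bases and that of SPANXC differs from them at 5 positions (98.3% identity), whereas SPANXB1 and SPANXD share 25.3% and 28.0% with SPANXA2 when read without gaps. SPANXA2 (chrX:141589458-141589757, plus strand) and SPANXC (chrX:141242468-141242767, minus strand) are printed with the differing positions in capitals to show how close the copies are.
SPANXA2: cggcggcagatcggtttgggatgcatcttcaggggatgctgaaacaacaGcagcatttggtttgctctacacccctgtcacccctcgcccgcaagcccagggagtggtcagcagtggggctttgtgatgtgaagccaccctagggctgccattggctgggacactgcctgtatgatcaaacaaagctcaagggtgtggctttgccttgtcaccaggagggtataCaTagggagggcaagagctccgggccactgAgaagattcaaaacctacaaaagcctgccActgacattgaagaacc
SPANXC: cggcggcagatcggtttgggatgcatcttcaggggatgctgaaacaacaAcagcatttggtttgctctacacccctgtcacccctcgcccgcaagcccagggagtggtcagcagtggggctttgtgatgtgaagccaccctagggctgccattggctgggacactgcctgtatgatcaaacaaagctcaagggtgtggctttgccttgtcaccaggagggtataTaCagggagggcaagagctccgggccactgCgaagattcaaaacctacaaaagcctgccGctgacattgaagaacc

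Other germline genes took part unevenly. Of 22 tested genes picked by the names of cancer-testis families, 9 rose and 2 fell (median 0.30). The 9 include the 5 SPANX copies and TEX19, a germline gene that the name pattern took in although it lies on chromosome 17, at 2.93. The melanoma antigen genes MAGEC2, MAGEB2 and MAGEC1 rose, with lower bounds of 2.55-fold, 1.20-fold and 1.22-fold. CT45A3 and CT45A1 fell, with bounds of 2.14-fold and 1.54-fold. These genes outside the SPANX family were named after their values were seen. Imprinted genes, expressed from 1 parental allele, had 6 rises and 2 falls among 14 (median 0.36; 3 rises without control replicate 2). The growth inhibitor CDKN1C read 4.86 and 4.60 against 7.67 and 7.24, GRB10, an adaptor that restrains insulin signalling, 7.22 and 7.46 against 9.55 and 9.66, and NAP1L5 fell from 7.89 and 7.74 to 6.48 and 6.86.

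Extracellular proteases and their inhibitors held calls in both directions. Of 30 metalloproteinases and TIMPs tested, 9 rose (30%) and 5 fell (16.7%), with a median of 0.19. The shares over all genes were 19.5% and 19.7%, so falls were no more common in this list. All 4 TIMP genes, inhibitors of the others, rose. TIMP2 read 10.73 and 10.87 against 12.46 and 12.51. ADAM8, a membrane-bound metalloproteinase, was detected on 1 control and read 5.06 and 4.74 against 10.18 and 10.37. ADAMTS6 went the other way, from 10.45 and 10.60 to not detected, at least 53.6-fold lower, and MMP1, interstitial collagenase, fell from 8.17 and 8.39 to 6.38 and 6.15. Of 16 plasminogen activators and serpins, 9 rose (56.25%) and 2 fell (12.5%, below the share over all genes), with a median of 0.84. SERPINA1, the elastase inhibitor alpha-1-antitrypsin, read 6.89 and 6.59 against 10.68 and 10.58, and SERPINA3 was at least 9.42-fold higher. The falls were SERPINB8, from 8.01 and 8.24 to 5.18 and 5.93, and SERPINB7, at least 1.89-fold lower, which are near neighbours on chromosome 18 and lie in a run of 7 adjacent called genes that all fell.

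Genes of adhesion and matrix rose more often than they fell. Of 19 integrin subunits 9 rose and 1 fell (median 0.22, and 0.51 without control replicate 1). ITGB4, the beta subunit of hemidesmosomes, read 6.12 and 6.02 against 10.13 and 9.81, ITGB2, best known from leukocytes, 8.51 and 8.25 against 11.53 and 11.32, and the collagen receptor subunit ITGA1 was at least 4.84-fold higher. ITGAV was the only fall, at -0.84, and was named after its values were seen. Collagens and laminins had 11 rises and 5 falls among 29 (median 0.14). The falls numbered 3 without control replicate 2 or labelled knockdown replicate 2, and the median was 0.44 without the latter. COL5A1 read 7.96 and 8.06 against 10.75 and 10.88, and the laminin chains LAMA5 and LAMC1 rose by 2.80 and 2.14. COL4A1, named after its values were seen, fell by 1.39, while COL4A2, the chain it pairs with in basement membranes, was not called at -0.21.

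Junction genes differed by member. Of 19 cadherins, catenins and desmosomal genes, 8 rose and 2 fell (median 0.44). CDH11, a mesenchymal cadherin, was not detected on the controls (4.32 and 4.23) and read 11.56 and 11.61, at least 110-fold higher. JUP, plakoglobin, was detected on 1 control and read 5.15 and 4.78 against 10.79 and 10.54, and DSP, desmoplakin, 5.46 and 5.81 against 7.98 and 7.90. CDH1, E-cadherin, was at least 2.03-fold higher but stayed dim at 6.08 and 5.57, and CDH2, N-cadherin, was not detected on both arrays of either arm. Of 27 tight junction genes 9 rose and 5 fell (median 0.11), and the falls numbered 2 without control replicate 1 and 3 without control replicate 2. CLDN11 was at least 21.5-fold higher and CLDN7 rose from 7.73 and 7.49 to 9.30 and 9.07, while CGN, cingulin, fell from 6.83 and 7.04 to 5.42 and 5.43.

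Keratins are the intermediate filaments of epithelial cells. Of 11 keratins tested, 5 rose and 1 fell (median 0.40). KRT19 read 7.98 and 7.45 against 12.27 and 12.11, KRT7 8.34 and 8.38 against 10.88 and 10.82, and KRT8 9.46 and 9.52 against 11.06 and 10.78. KRT34, a hair keratin, fell from 6.42 and 6.07 to 4.99 and 5.17. Of 14 transcription factors of the epithelial-mesenchymal transition, 4 rose and 2 fell (median -0.03), with 2 rises without control replicate 1. The shares, 28.6% and 14.3%, compare with 19.5% and 19.7% over all genes. The epithelial ETS factors EHF and ELF3 read 4.83 and 4.51 against 8.20 and 8.04, and 6.04 and 6.02 against 7.90 and 7.77. ZEB1, a repressor of epithelial genes, fell from 6.29 and 6.52 to 5.30 and 5.04. SNAI2 fell by 0.76 with an adjusted p of 0.0241, and that call was lost without control replicate 1 (adjusted p = 0.0591), without control replicate 2 (0.163) and without labelled knockdown replicate 1 (0.0972).

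Of 29 receptor tyrosine kinases, which bind growth factors at the cell surface, 12 rose and 5 fell (median 0.19). Without control replicate 1 the falls numbered 2, and without labelled knockdown replicate 2 the median was -0.013. The WNT receptor ROR1 read 4.95 and 5.14 against 7.55 and 7.61, the collagen receptor DDR1 6.25 and 5.65 against 8.19 and 8.20, and EGFR 8.24 and 8.37 against 9.06 and 8.91. The EGFR rise of 0.68 was lost without control replicate 1 (adjusted p = 0.0996) and without control replicate 2 (0.0603). TIE1, known from endothelium, fell from 7.06 and 7.10 to not detected, at least 4.92-fold lower. Of 42 genes of the TGF-beta and BMP pathway 17 rose and 6 fell (median 0.25), and the falls numbered 2 without control replicate 1, 3 without labelled knockdown replicate 1 and 0 without control replicate 2. The ligand BMP4 read 5.22 and 5.16 against 7.83 and 8.06, its target ID1 8.25 and 8.12 against 11.83 and 11.80, and SMAD6, an inhibitor of BMP signalling, 5.77 and 5.84 against 9.07 and 8.93. The stress-induced ligand GDF15 was at least 13.4-fold higher.

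Of 28 genes of the Notch pathway, a signal between touching cells, 12 rose and 3 fell (median 0.47). The ligand JAG1 read 5.66 and 5.54 against 9.41 and 9.52, and LFNG, a glycosyltransferase that modifies Notch receptors, 6.48 and 6.08 against 9.80 and 9.67. The target genes HEYL and HEY1 moved the opposite way, from 6.99 and 7.02 to 4.53 and 5.20 and from 6.89 and 6.64 to 5.26 and 5.80. The related gene HES2 rose, so this family did not move in 1 direction. Of 34 WNT pathway genes 8 rose and 6 fell (median 0.13), near the shares over all genes, with 2 falls without either control replicate and 5 rises without control replicate 2. Within it the coreceptor LRP5 read 8.26 and 8.12 against 11.23 and 11.36, the ligand WNT7B 5.47 and 5.33 against 8.43 and 8.28, and AXIN2, a feedback target, 6.80 and 6.91 against 8.61 and 8.999. Of 14 genes of the insulin-like growth factor axis 7 rose and 0 fell (median 0.48), led by the binding proteins IGFBP4 (9.96 and 9.78 against 12.32 and 12.07) and IGFBP6 and IGFBP7 (1.87 and 1.44).

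Among immune and death signals, 6 of 20 chemokines and their receptors rose and 1 fell, and without control replicate 2 the rises numbered 3. The fall was CXCR4, the receptor of CXCL12, which went from 7.36 and 7.39 to not detected, at least 6.05-fold lower. CX3CL1 was at least 3.03-fold higher and CCL20 read 6.999 and 6.50 against 7.89 and 8.47. Of 28 caspase and death receptor genes 9 rose and 4 fell (median 0.27), with 2 falls without either control replicate. The inflammasome adaptor PYCARD read 5.48 and 5.49 against 8.54 and 8.07, CASP1 5.59 and 5.11 against 7.09 and 6.75, and the TNF receptor TNFRSF1B 5.05 and 5.31 against 7.68 and 7.70, while NLRP3, which acts upstream of the first 2, fell as given above. The death ligand TNFSF10 was at least 3.59-fold higher. The shares of the caspase and death receptor list, 32.1% and 14.3%, compare with 19.5% and 19.7% over all genes. Annexins had 2 rises (18.2%) and 1 fall (9.09%) among 11, near and below those over all genes. ANXA5 read 12.41 and 12.49 against 13.42 and 13.44.

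Transcription factor families moved by member. Of 23 AP-1 and ATF genes 7 rose (30.4%) and 4 fell (17.4%, near the share over all genes), with a median of 0.01. CEBPD read 9.53 and 9.18 against 11.36 and 11.38, the stress factor DDIT3 7.06 and 6.71 against 8.81 and 8.73, and JUND 12.05 and 11.97 against 13.39 and 13.29. FOSL1, an AP-1 subunit among the markers of the line, read 10.47 and 10.41 against 10.62 and 10.46 and was not called, and CEBPA was at least 2.11-fold lower. Of 22 nuclear receptors 7 rose and 3 fell (median 0.19, and -0.021 without control replicate 1), among them RXRA, the shared partner of many of them, from 8.18 and 7.82 to 10.36 and 10.14. Of 64 channel and gap junction genes 13 rose (20.3%) and 8 fell (12.5%), beside 19.5% and 19.7% over all genes. Only 39 of the 64 were among the included genes, and no gene outside those was called. Both shares are therefore lowered by dim genes and do not compare directly with those over all genes. The rises were fewer when either control replicate was left out. SCNN1A, the alpha subunit of the epithelial sodium channel, was at least 43.5-fold higher. The gap junction genes GJB2 and GJA1 moved in opposite directions, from 7.57 and 7.44 to 9.97 and 10.00 and from 8.77 and 8.95 to 6.74 and 6.87.

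Ribosome biogenesis factors are nucleolar proteins that build ribosomal subunits. Of 87 tested, 54 fell (62.1%) and 1 rose, with a median of -0.73, and 53 of the falls were among the 85 genes detected on all 4 arrays. Without control replicate 2 the falls numbered 35, in a fit that called 1366 falls over all genes in place of 2567. PNO1, an assembly factor of the small subunit, read 9.57 and 9.79 against 6.86 and 7.03 (-2.73 ± 0.18). RRS1, a factor of the large subunit, went from 9.94 and 9.60 to 7.52 and 7.50, and NIP7 from 10.87 and 10.88 to 9.09 and 9.23. POLR1B, a subunit of RNA polymerase I, which transcribes ribosomal DNA, went from 6.17 and 6.12 to 5.22 and 5.40. Chromosome 2, whose genes fell more often in general, held 10 of the 87, of which 9 fell, and chromosome 4 held 4, of which 0 fell.

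Promoters of 2 of these factors are shown for the E-box, the CACGTG sequence (the same on both strands) that MYC and related factors bind. They were picked as the 2 largest falls among the list's genes that have it, so they are not typical of the list. It stood in 26 of 75 ribosome biogenesis promoters with an entry (34.7%) against 10.0% of the promoters of all genes tested. Of the 26 with it 18 fell, and of the 49 without it 26 fell. Over all genes tested, 21.1% of those with an E-box and 19.6% of those without fell, and the median differences were 0.013 and -0.0037. PNO1 lies at chr2:68157638-68157937 and UTP4, which fell by 1.48, at chr16:69132399-69132698, both on the plus strand, with the E-box in capitals.
PNO1: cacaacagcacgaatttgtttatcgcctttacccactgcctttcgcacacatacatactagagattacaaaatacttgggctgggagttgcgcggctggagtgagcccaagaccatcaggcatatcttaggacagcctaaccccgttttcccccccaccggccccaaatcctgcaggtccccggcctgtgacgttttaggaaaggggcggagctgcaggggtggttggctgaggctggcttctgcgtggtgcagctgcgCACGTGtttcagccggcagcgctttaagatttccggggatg
UTP4: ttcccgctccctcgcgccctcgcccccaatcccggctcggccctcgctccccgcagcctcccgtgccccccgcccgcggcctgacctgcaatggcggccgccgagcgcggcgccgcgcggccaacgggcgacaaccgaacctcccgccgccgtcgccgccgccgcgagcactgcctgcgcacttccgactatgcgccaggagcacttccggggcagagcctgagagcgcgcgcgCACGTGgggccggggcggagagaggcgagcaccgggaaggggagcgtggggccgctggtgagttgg

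Of 29 genes of purine and pyrimidine synthesis, the enzymes that make nucleotides, 18 fell (62.1%) and 1 rose (median -0.66), and without control replicate 2 the falls numbered 9. RRM2, the small subunit of ribonucleotide reductase, read 8.76 and 8.96 against 6.37 and 6.81. ATIC, which closes the purine ring, went from 12.47 and 12.70 to 10.84 and 10.90, CTPS2, a CTP synthase, from 9.74 and 9.78 to 8.04 and 8.22, and CAD, the first enzyme of pyrimidine synthesis, from 8.70 and 8.59 to 7.38 and 7.24. Of 19 enzymes of serine synthesis and folate metabolism 8 fell and 3 rose (median -0.35). The serine pathway split, with its first enzyme PHGDH at 4.81 and 5.05 against 8.33 and 8.11 and the next, PSAT1, at 11.41 and 11.44 against 9.67 and 9.95. The mitochondrial folate enzyme MTHFD2 went from 9.04 and 9.35 to 7.83 and 8.13. SHMT2 fell by 0.49 with an adjusted p of 0.0424, which missed the threshold when any 1 of the 4 arrays was left out (0.069 to 0.192).

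Of 75 mitochondrial ribosomal proteins 26 fell and 6 rose (median -0.25), and the falls numbered 12 without control replicate 1 and 17 without control replicate 2. The rises numbered 0 without control replicate 2 and 2 without labelled knockdown replicate 1. MRPL46 read 10.74 and 10.44 against 8.56 and 9.001, and MRPL3 11.92 and 12.10 against 10.52 and 10.61. Of 65 genes picked by the names of translation factors, which also took in methyltransferases and kinases of those factors, 15 fell and 3 rose (median -0.13). The share of falls, 23.1%, was near the 19.7% over all genes, while that of rises, 4.62%, was below the 19.5%. The falls were fewer when either control replicate was left out. EIF1AX, an initiation factor, went from 9.12 and 9.28 to 7.59 and 7.89, and EEF1A2, a tissue-restricted elongation factor, rose from 8.71 and 8.51 to 10.36 and 10.16. Of 18 cytosolic aminoacyl-tRNA synthetases 4 fell and 0 rose, with KARS1 at 9.65 and 9.54 against 8.62 and 8.47, and the falls numbered 2 without control replicate 1 or labelled knockdown replicate 2 and 1 without control replicate 2.

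Heat shock and cytosolic chaperones had 14 falls and 6 rises among 40 (median -0.27), with 8 falls without control replicate 2. The chaperonin subunit CCT4 read 9.07 and 9.41 against 7.56 and 7.71, the mitochondrial chaperone HSPD1 12.97 and 13.44 against 12.17 and 11.72, and the stress-inducible HSPA1A rose from 8.13 and 8.02 to 9.63 and 9.79. In the endoplasmic reticulum 7 chaperone genes rose and 7 fell among 32 (4 and 3 without control replicate 2). The share was 21.9% each way, near the 19.5% and 19.7% over all genes. HSPA5, the main chaperone of the reticulum, read 8.59 and 8.39 against 10.06 and 9.86, PDIA4, a disulfide isomerase, 6.25 and 6.27 against 7.49 and 7.76, and the collagen chaperone FKBP10 was at least 3.08-fold lower. Of 41 proteasome genes 10 fell and 3 rose (median -0.25), and without control replicate 2 the falls numbered 6. PSMD14, the deubiquitinase of the lid, went from 11.61 and 11.82 to 10.30 and 10.15. The rises include PSMB9 and PSMB10, subunits of the immunoproteasome, at 0.83 and 0.84, and both calls were lost without control replicate 2 (adjusted p = 0.102 and 0.0601). Of 25 amino acid transporters 4 rose and 5 fell, with 3 falls without either control replicate. Those shares, 16% and 20%, were also near the ones over all genes. The rises include the glycine transporter SLC6A9, from 5.03 and 5.01 to 8.27 and 8.15.

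Of 36 genes of homologous recombination and the Fanconi anaemia pathway 18 fell and 0 rose (median -0.60). The falls numbered 9 without control replicate 1, 6 without control replicate 2 and 11 without labelled knockdown replicate 2. FANCB, a subunit of the Fanconi core complex, read 7.68 and 7.88 against 5.30 and 5.19, and the helicase BLM 6.83 and 7.16 against 5.79 and 5.35. BARD1, the partner of BRCA1, fell by 1.54. BRCA1 read 6.99 and 6.87 against 6.60 and 6.04, and its adjusted p of 0.0492 missed the threshold under 6 of 12 other settings, up to 0.232. Of 66 kinetochore, spindle and cytokinesis genes 17 fell (25.8%) and 8 rose (12.1%), beside 19.7% and 19.5% over all genes. Their median was -0.08, and 0.034 without labelled knockdown replicate 2. Without control replicate 2 the falls numbered 9, and the rises numbered 4 without control replicate 1 and 5 without control replicate 2 or labelled knockdown replicate 1. The kinetochore proteins ZWILCH and SPC25 went from 6.91 and 7.23 to 5.63 and 5.31 and from 8.83 and 8.55 to 7.33 and 7.27, whereas CENPF, another kinetochore protein, rose from 8.49 and 8.42 to 10.45 and 9.37, with an SD of 0.76 between the labelled knockdown replicates.

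Of 51 lysosomal enzymes and membrane proteins 20 rose, 3 fell and 28 were not called (median 0.29). The enzymes FUCA1, SGSH and SMPD1, which cleave fucose, heparan sulfate and sphingomyelin, read 6.96 and 7.10 against 10.26 and 10.54, 7.90 and 7.76 against 9.64 and 9.31, and 5.46 and 5.98 against 7.47 and 7.24. IDUA was at least 4.03-fold higher. LAMP1, the major membrane glycoprotein of lysosomes, read 11.85 and 11.88 against 11.87 and 11.74 and was not called. The 3 falls, named after their values were seen, were the proton pump subunits ATP6V1H (-1.14), ATP6V0D1 (-1.03) and ATP6V1D (-0.56). Of 38 autophagy genes 8 rose and 6 fell, with 3 falls without either control replicate or labelled knockdown replicate 1. These shares, 21.1% and 15.8%, were near the 19.5% and 19.7% over all genes. MAP1LC3A, a protein of the autophagosome membrane, read 7.59 and 7.18 against 10.62 and 10.33, and BECN1, which starts its formation, fell from 10.02 and 10.28 to 8.90 and 9.04.

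Metabolic and stress lists were mixed. Of 33 genes of the citric acid cycle and pyruvate entry 10 fell and 5 rose, and without control replicate 2 the falls numbered 4. Pyruvate carboxylase, PC, read 7.29 and 7.36 against 9.86 and 9.81, malic enzyme ME2 9.34 and 9.50 against 7.18 and 6.84, and SUCLG1, a subunit of succinyl-CoA ligase, 12.14 and 12.24 against 10.17 and 10.30. Of 41 genes of fatty acid synthesis and oxidation 15 rose and 8 fell (median 0.11), and there were 9 rises and 5 falls without control replicate 1 and 8 rises and 4 falls without control replicate 2. CPT1C was at least 9.95-fold higher and the desaturase SCD read 11.29 and 11.24 against 12.35 and 12.55. Of 33 targets of the antioxidant factor NRF2 7 rose and 4 fell (2 without control replicate 2), near the share over all genes for rises. The aldo-keto reductase AKR1C2 read 5.41 and 4.99 against 8.57 and 8.56, while NQO1, a standard target, and NFE2L2, which encodes NRF2, were not called at -0.31 and -0.33. Of 5 metallothioneins, which bind zinc and copper, MT1F rose from 5.11 and 5.04 to 7.95 and 7.91 and MT1X passed at an adjusted p of 0.039 but not without control replicate 2 (0.284).

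The genes closest to SETDB1's own function rose and fell in near equal number. Of 28 genes of H3K9 methylation, HP1 and the HUSH complex 6 rose and 5 fell (median 0.01), shares near those of all genes, and there were 2 rises and 3 falls without control replicate 1 and 2 of each without control replicate 2. CHAF1B and UHRF1, which act at replicating chromatin, went from 8.93 and 9.23 to 7.75 and 7.79 and from 11.80 and 12.10 to 10.78 and 11.04. TASOR, a HUSH subunit, read 5.91 and 5.91 against 6.98 and 6.53, and its call was lost without control replicate 1 (adjusted p = 0.0587) and without control replicate 2 (0.0624). Of 40 chromatin remodellers 11 rose and 6 fell, with 5 rises and 2 falls without control replicate 1 and 3 rises and 2 falls without control replicate 2. HELLS, a helicase needed for DNA methylation of repeats, fell from 8.70 and 8.94 to 7.20 and 6.76. Of 16 histone deacetylases and sirtuins 5 rose and 3 fell (2 and 2 without control replicate 1, 1 and 1 without control replicate 2, and 3 rises without labelled knockdown replicate 2), with SIRT1 at 7.87 and 8.19 against 6.91 and 7.10.

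**Figure D4:**
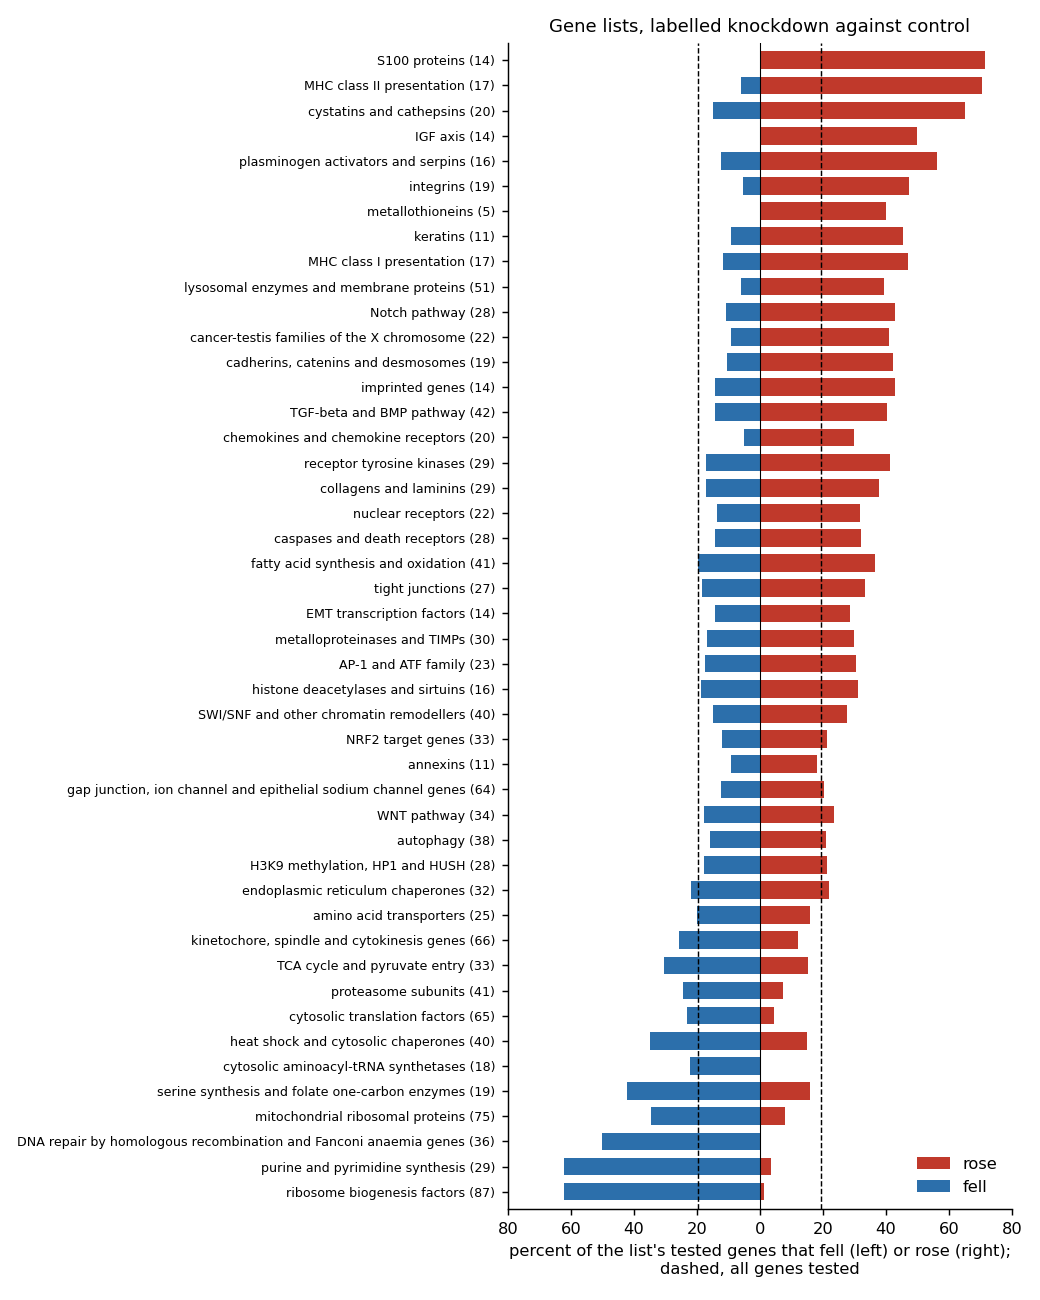
Percent of the tested genes of each of 46 lists that rose (red, right) or fell (blue, left), with the number tested in parentheses and the shares over all genes, 19.5% and 19.7%, as dashed lines. S100 proteins and MHC class II presentation stand at the top and purine and pyrimidine synthesis and ribosome biogenesis factors at the bottom; some genes belong to 2 lists.

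The line's own markers and those of other cells were read on the same arrays. All 10 markers of MDA-MB-231 were detected in both arms, 2 rose and 0 fell, and their summed intensity was 51519 and 55788 on the controls and 54332 and 57686 on the labelled knockdown arrays, against 437 on the MDA-MB-453 control. Of 12 luminal markers with a probe, which sum to 53938 in the MDA-MB-453 control, the sums were 3932 and 4552 against 6102 and 6033. PIP, RAB25, ESR1 and PGR were not detected on any of the 4 arrays, and FOXA1, the only fall, went from detected to not detected. The 4 rises were SPDEF, TFF3, KRT8 and GATA3. SPDEF went from not detected (4.33 and 4.63) to 9.46 and 9.33, and TFF3 from not detected to 5.10 and 4.98. The 8 endothelial markers summed to 1890 and 1914 against 470 and 425, with ENG, ECSCR and ESM1 falling and PECAM1 rising, and CDH5, VWF and KDR were not detected. The 7 haematopoietic markers with a probe summed to 266 and 217 against 1565 and 1525, of which CD14 was the only rise, from 6.60 and 6.20 to 10.47 and 10.43. The pan-leukocyte gene PTPRC was detected on 1 control only and CD3E, HBB and SPI1 on no array. LYZ was detected on all 4 arrays but dim, at 5.26 and 4.82 against 5.27 and 4.87. Of the 4 arrays ITGAM was detected on labelled knockdown replicate 2 only, and neither was called. These readings stand beside the class II and ITGB2 rises. The 8 fibroblast markers summed to 196 and 210 against 257 and 246, with COL1A2, COL3A1, LUM, THY1 and FAP not detected. PDGFRB was the only rise, from not detected (4.57 and 4.67) to 6.21 and 6.26. COL1A1 and DCN were dim, detected on both controls and 1 labelled knockdown array, and not called. Of the 6 markers of HEK293, the usual line for packaging hairpin viruses, ZIC2 was detected throughout and fell, and LIN28B, NEFM, SIX3 and HES5 were not detected. The part of other cells in the results was not tested.

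Promoter composition differed between the classes of genes. Over RefSeq promoters of 300 bases, found for 10356 of the 13022 genes, 79.4% of tested genes had a CpG observed-over-expected ratio above 0.6. The share was 74.9% of the 2052 genes that rose and 85.5% of the 2043 that fell. It was 53.8% of the genes detected only in the labelled knockdown arm and 57.6% of those detected only in the control arm. Among genes detected on all 4 arrays it was 79.1% of those that rose, 88.9% of those that fell and 86.3% of those not called. Rises of 8-fold or more had such a promoter in 53.4% of 88 genes and falls of that size in 31.8% of only 22. Among the 9363 included genes with a promoter the share was 82.1%, above that of all genes tested. Tested genes outside the included set, none of them called, were therefore poorer in such promoters too. Genes seen in 1 arm only were poorer in CpG promoters in both directions, a trait they share with those uncalled genes. These shares are descriptions with no test.

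Called genes lay near others that moved the same way. Of 2140 pairs of neighbouring tested genes that were both called, 70.6% had the same direction, and the share fell to 63.6% at 10 places apart, 57.4% at 50 and 56.8% at 200. The longest run of adjacent tested genes called in 1 direction was 11, all falls, on chromosome 10 from PDSS1 to BAMBI, with a median of -1.34. Runs of 10 falls lay on chromosome 2 from COL5A2 to INPP1 and on chromosome 15 from RAB11A to LCTL. The longest run of rises was 8 genes on chromosome 6 from RUNX2 to TNFRSF21, with a median of 1.61. These genes were named after the runs were seen.

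By chromosome the median difference ran from -0.52 on chromosome 13 to 0.24 on chromosome 4. On chromosome 13, 48.7% of 228 tested genes fell and 9.21% rose, and on chromosome 2, 36.5% of 832 fell and 8.65% rose. On chromosome 4 the balance was the reverse, with 31.8% of 465 genes rising and 7.31% falling, and on X 30.3% rose and 11.2% fell. Between control replicates the chromosome medians ran from -0.05 to 0.11, and between labelled knockdown replicates from -0.11 to 0.06, and the medians of chromosomes 2, 3, 5, 8, 10, 13, 15 and 18 lay below both ranges and those of 4, 7, 9, 19, 20 and X above both. RFXAP lies on chromosome 13, and PNO1, ATIC and MTHFD2 on chromosome 2, so their falls stand beside those of their neighbours. The files hold no DNA copy number, and whether the arms differ in it was not tested.

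**Figure D5:**
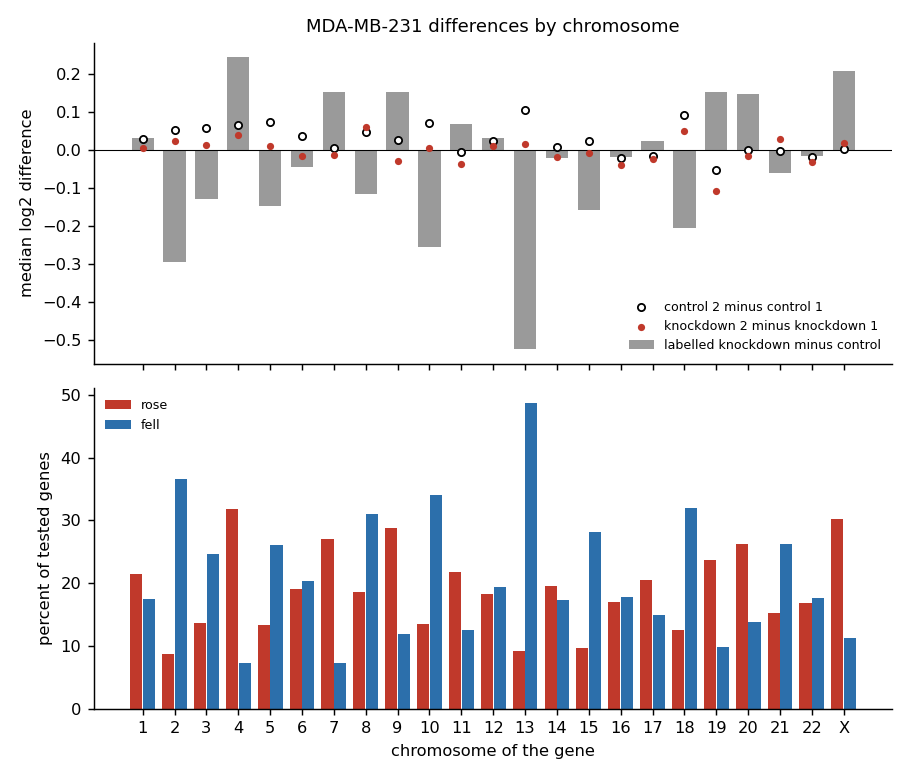
Top, median log2 difference of the tested genes of each chromosome (x axis): bars, labelled knockdown minus control; open circles, control replicate 2 minus 1; red circles, labelled knockdown replicate 2 minus 1. Bottom, percent of those genes that rose (red) or fell (blue); chromosome 13 has the lowest median (-0.52) and the largest share of falls (48.7%).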

How the data were processed

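Total RNA was labelled as biotinylated cRNA and hybridised to Illumina arrays, per the labels' protocols. The authors deposited non-normalized probe intensity values with a detection p-value beside each, per the file headers, and a table of processed values on a log2 scale. The processed log2 values deposited by the authors equal quantile-normalized log2 intensities to within 0.0158 and have a median of 5.71. The program behind the intensities and detection p-values is not given in the sources used here, and the number of arrays limits the precision.

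From the intensities, background was corrected with limma 3.58.1 in R 4.3.3 (normexp from the detection p-values, offset 16), followed by quantile normalization over the 6 arrays and log2. Named probes detected (p below 0.05) on at least 2 of 6 arrays were kept (17668), and the brightest probe per gene was tested (13022 genes). GEO's platform annotation named 30113 probes with 1 symbol, 8 with several and 17986 with none, and of their identifiers 30074 were found in RefSeq. Of 3593 genes with several tested probes, 1879 had a probe called. Among these, 1022 had over 1 probe called, all in 1 direction, and 20 had probes called in opposite directions. The rest of the 1879 were called by 1 of their probes only. A model of 4 group means was fitted with lmFit and eBayes (2 residual degrees of freedom, prior 6.52), two-sided, with Benjamini-Hochberg adjustment over all genes. An exact permutation of 2 against 2 arrays cannot give a p below 0.333, so smaller p-values rest on the spread shared between genes. The model fit alone was tested on simulated log2 values in which a far smaller share of genes changed than was called here. Background correction, normalization, filter and probe choice were not part of that test.

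Genes were named by rule: SETDB1, BMI1 and MYC, the 12 largest rises and 12 largest falls among genes detected on all 4 arrays, up to 5 called genes per list by size, key members, the cell markers and near copies of these. The included genes, the 46 gene lists and the tests were chosen with earlier results of these data known, so no count is independent evidence for a list. Same-numbered replicates are not shown to be paired (the correlation of their deviations from the group means is 0.07). Alternatives were background correction, offset, scaling, the arrays fitted, filters, a replicate block, an intensity trend and leaving out each array. Promoters are from RefSeq (GRCh38.p14) and matched by Entrez gene identifier. The array files name no genome build.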

Additional observations from a re-analysis of the deposited data

Results flagged for a closer look

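Each of the 24 genes named for the largest differences in MDA-MB-231 among genes detected on all 4 arrays differed from the difference in MDA-MB-453, where 1 array labelled shRNA-3 was set against 1 control. The test was the interaction term of the same limma fit, which called 13.6% of all genes tested, and the genes were chosen for their size in MDA-MB-231, so a gap between the lines is favoured by the choice. With 1 array an arm, MDA-MB-453 adds no spread of its own, and the test assumes that its arrays vary like the MDA-MB-231 replicates. Hairpin and line change together and cannot be told apart. For the rises, the effect in MDA-MB-231 minus that in MDA-MB-453 (log2) was 8.33 for S100A4, 7.99 for SPANXA2, 7.38 for SPANXB1, 6.25 for TIMP3, 5.97 for CPE and 5.28 for FOXQ1. It was 5.05 for PTGES, 4.95 for ABCA1, 4.82 for HLA-DRA, 4.66 for ADIRF, 4.45 for KRT19 and 4.21 for RASD1. RASD1 was also higher on the MDA-MB-453 array labelled knockdown, at 6.05 against 4.72, while KRT19 was bright on both, at 12.81 and 12.78.

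For the falls, the same quantity was -5.34 for MARCHF4, -4.48 for RAB3IL1, -4.06 for KISS1, -4.06 for RBPMS2, -3.79 for MAP3K7CL and -3.70 for SRGN. It was -3.41 for TRNP1, -3.40 for SLCO1B3, -3.40 for AOX1, -3.39 for TMEM98, -3.26 for NLRP3 and -2.21 for PDSS1. RAB3IL1 was higher on the MDA-MB-453 array labelled knockdown (7.18 against 5.99), opposite to its fall in MDA-MB-231. KISS1 was lower there too, at 4.84 against 5.93, and PDSS1 at 7.48 against 8.20. MARCHF4 read 4.24 and 4.25 in MDA-MB-453, so it had no signal there from which to fall. SETDB1, BMI1 and MYC did not pass this test, with differences between the lines of 0.09, -0.05 and 0.31.

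Outside the named genes, 349 probes without a single gene symbol were detected on both labelled knockdown arrays and on neither control, and 275 showed the reverse. Of 17994 such probes 6367 passed the filter, and 427 rose and 550 fell, a share of 15.3%. They are not named here.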

How the results depend on the processing

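Over the settings tried, no gene named by the rule changed sign where the main fit or the alternative called it. Of the results for these genes, 52 lost the call, 5 gained it and 3013 stayed on the same side of the threshold. A change of sign in a gene that neither fit called counts among the 3013. Without control replicate 1, 3305 genes were called (1607 falls), and without control replicate 2, 2893 (1527 rises and 1366 falls), and leaving out each array in turn gave 2893 to 5246, with 1527 to 2613 rises and 1366 to 2633 falls. In those fits the lone array of an arm is assumed to vary like the others. Requiring a 2-fold difference as well left 2174. Median scaling called 5101 genes but with 2189 rises and 2912 falls, and moved the median of all genes to -0.06. The replicate block called 4919 genes (2449 rises, 2470 falls), and since the pairing is not shown it was not used. No filter on dim probes gave 4622 of 20046. SETDB1 ranged from -0.24 to -0.12 (adjusted p 0.315 to 0.694), BMI1 from -1.35 to -1.01 (highest adjusted p 0.0227) and MYC from -0.20 to -0.02. The median of receptor tyrosine kinases ran from -0.013 (without shRNA-1 replicate 2) to 0.323 and that of nuclear receptors from -0.021 (without control replicate 1) to 0.312 with 1 array left out. The genes whose effect differed between lines numbered 1766, against 2771 with median scaling and 726 to 2678 with 1 array left out, a repeat added after the data were seen. The causes of these changes were not tested. Signal near background limits all genes seen in 1 arm only.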
